A study of Bos taurus with 6 samples.

Results

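The ADAM and ADAMTS genes of cattle were examined in testis RNA of calves and bulls. The members were all rows of the table of genes whose symbol is ADAM, ADAMTS or ADAMTSL followed by a number, together with ADAMDEC1, and they numbered 44 of 47249 genes. They comprised 20 ADAM symbols with ADAMDEC1 included, 19 ADAMTS symbols and 5 ADAMTSL symbols. The rule itself reads only the symbols.

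The libraries came from Wandong cattle (Bos taurus). One group was testes of 3 untreated immature calves aged 3 months, and the other was testes of 3 untreated mature bulls aged 3 years, with 1 library of ribosome-depleted total RNA per animal. No agent and no genetic change was applied, and age with sexual maturity was the difference that the design compared. Following the labels, calves and bulls carry the numbers 1 to 3. Levels are given in FPKM, fragments scaled to transcript length and to the mapped fragments of the library, which allows levels of different genes to be compared per length. The tables hold no read counts, so the depth behind a single value is not known from them.

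ADAM proteins are membrane-anchored proteins with a metalloprotease-like domain followed by a disintegrin domain. Some, such as ADAM10 and ADAM17, cut the outer part of membrane proteins from the cell surface, a process called shedding, whereas others lack a working catalytic site and act in adhesion. Several ADAMs are made almost exclusively in germ cells, sit on the sperm head and are needed in mice for sperm to pass the uterotubal junction or to bind the zona pellucida. ADAMTS proteins carry thrombospondin repeats, are secreted, and cut proteoglycans, procollagens and other components of the extracellular matrix. ADAMTS-like proteins have the repeats but no protease domain.

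The library labelled calf 3 stood apart from the others, and its tissue label is in doubt. MBP, the gene of myelin basic protein, was at 3860 FPKM in calf 3 and at 1.46 to 3.24 FPKM in the other libraries. The summed level of 4 astrocyte markers (GFAP, AQP4, SLC1A2 and ALDH1L1) was 1640 FPKM in calf 3 and 4.18 to 6.75 FPKM elsewhere, and all 4 were highest in calf 3. Conversely, Leydig cell markers summed to 0.502 FPKM in calf 3 and to between 1140 and 2740 FPKM in the other libraries, and the Sertoli cell genes GATA4, FSHR and WT1 were listed at 0 there. Sertoli and Leydig cell markers were present in the other 5 libraries. Results are therefore given with all libraries, and also without calf 3 for each member and each list whose call, count or value that changes.

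Of the 44 genes, 37 reached an FPKM of 1 in at least 1 library, 14 reached it in all 6, and 7 reached it in none. The number at or above 1 per library was 29, 27 and 22 in calves 1 to 3 and 26, 29 and 29 in bulls 1 to 3. The level was highest in a bull for 16 genes, in calf 1 or calf 2 for 19 and in calf 3 for 9. The test of bulls against calves used log2(FPKM + 1) and the 34 genes that 3 or more libraries showed at an FPKM of 1 or above, of which 6 were below 1 in every calf and 4 below 1 in every bull. A gene was called when its adjusted p was below 0.05 and its levels differed at least 2-fold on that scale.

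In bulls, 13 of the 34 genes were higher, 3 were lower and 18 were not called (limma, Benjamini-Hochberg adjustment over all 18115 genes tested). Over all genes tested, 35.7% were called higher and 9.61% lower. Without calf 3, 13 were higher and 6 lower, where the shares over all genes were 37.9% and 13.6%. With quantile normalization, which moved the median log2 fold change of all genes from 0.43 to -0.26, 10 were higher and 11 lower, against 21.1% and 25.1% of all genes. Those 11 were ADAM12, ADAM33 and ADAMTS1, also lower without it, and ADAM9, ADAM10, ADAM19, ADAMTS3, ADAMTS10, ADAMTS20, ADAMTSL2 and ADAMTSL4. In the main comparison the libraries were not rescaled, and their summed FPKM ran from 587066 in calf 3 to 1098715 in calf 2. Some calls therefore depend on the scaling, and not only near the 2-fold limit. With quantile normalization ADAM19 moved from -0.16 to -1.11 and gained a call, and ADAM20 moved from 1.66 to 0.85 and lost its call. The median log2 fold change of the 34 genes in the main comparison was 0.08. Groups did not overlap for 14 tested genes higher and 9 lower in bulls, against 46.1% and 21.3% of all genes tested. Fold changes on the log2(FPKM + 1) scale understate the change of genes with low levels.

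**Figure D1:**
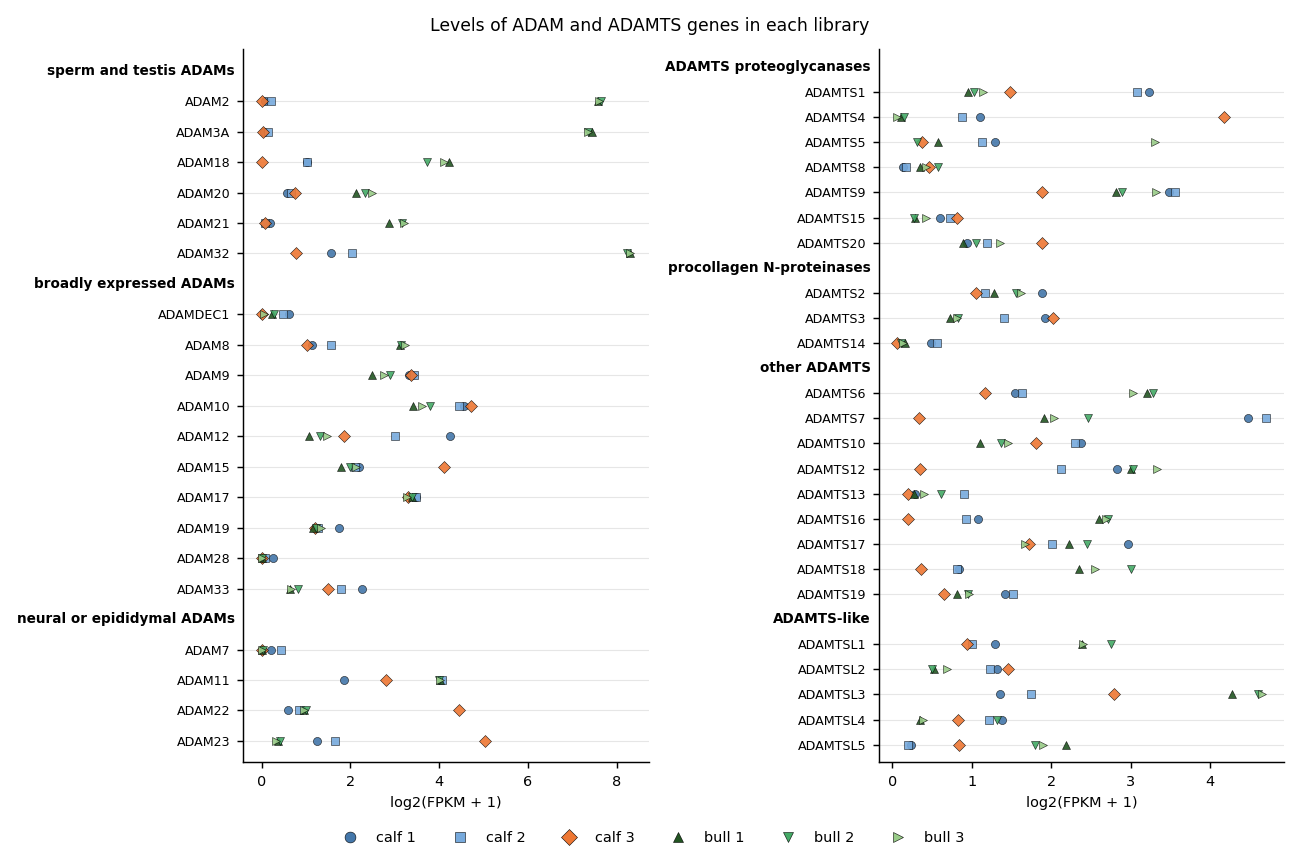
Level of each of the 44 genes, as log2(FPKM + 1) on the horizontal axis, with 1 point per library and genes grouped by role. The 3 bulls sit far to the right of the 3 calves for ADAM2, ADAM3A and ADAM32, and calf 3 sits apart from the other libraries for ADAM22, ADAM23 and ADAMTS4.

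The highest levels and the largest differences belonged to germ cell ADAMs. Of 19 symbols of this kind listed, 6 had a row in the table, ADAM2, ADAM3A, ADAM18, ADAM20, ADAM21 and ADAM32. All 6 were tested and called higher in bulls with and without calf 3, against 35.7% and 37.9% of all genes. ADAM2, ADAM3A, ADAM20 and ADAM21 were below 1 FPKM in every calf. They passed the filter through the bulls alone, so their direction was largely set by the filter. The median log2 fold change of the 6 genes was 5.08. Summed over the 6 genes, the level was 3.70, 5.03 and 1.45 FPKM in calves 1 to 3 and 704.3, 683.4 and 694.9 FPKM in bulls 1 to 3. In whole tissue, fewer cells of a type and less RNA per cell cannot be told apart. The 7 round spermatid markers summed to 2.53, 2.35 and 0.765 FPKM in calves and 314, 354 and 365 FPKM in bulls, with ACRV1 and SPACA4 at 0 in calf 3. The 7 elongating spermatid markers summed to between 1.35 and 2.10 FPKM in calves and between 13600 and 15400 FPKM in bulls, with ODF1 and PRM2 at 0 in calf 3. The 7 spermatocyte markers summed to 19.5, 26.7 and 3.37 FPKM in calves and 244, 280 and 247 FPKM in bulls, with TDRD5 at 0 in calf 3. All 7 markers in each of these 3 lists were higher in bulls, and their part in the ADAM differences was not tested.

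Positions below are those of the tables, on an ARS-UCD assembly. ADAM32 (ENSBTAG00000023146, chr27:34246204-34420189), a testis ADAM of the sperm surface, had the highest level of the 44 genes in every bull. Its FPKM was 1.95, 3.1 and 0.700 in calves 1 to 3 and 314, 298 and 311 in bulls 1 to 3. Its log2 fold change was 6.82 ± 0.33 (SE, adjusted p = 2.23e-05), or 6.47 ± 0.15 without calf 3. Among the 16921 entries with a gene symbol it ranked 119, 123 and 110 in bulls 1 to 3. ADAM2 (ENSBTAG00000009408, chr27:34592556-34693833), known as fertilin beta, forms the sperm surface complexes in which other ADAMs are stabilised. Its FPKM was 0.0580, 0.153 and 0 in calves and 191, 198 and 193 in bulls, a log2 fold change of 7.51 ± 0.14 (adjusted p = 2.53e-06). Levels of ADAM2 in bulls spread little, with a mean of 194 ± 3.30 FPKM (SD, n = 3). ADAM3A (ENSBTAG00000033312, chr27:34708242-34822419) is the cattle gene of the cyritestin family, whose loss in mice stops sperm from binding the zona pellucida. Its FPKM was 0.0313, 0.110 and 0.0216 in calves and 172, 163 and 162 in bulls, and its log2 fold change was 7.31 ± 0.14 (adjusted p = 2.53e-06). For these 3 genes every bull was at least 162 FPKM and every calf at most 3.1 FPKM.

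The other germ cell ADAMs had lower levels. ADAM18 (chr27:34856753-34968342), a sperm surface protein also called tMDC III, had an FPKM of 1.04, 1.02 and 0 in calves and 17.7, 12.3 and 16.1 in bulls (log2 fold change 3.34 ± 0.34, adjusted p = 0.000372). ADAM21 (chr10:82140221-82156081) had an FPKM of 0.136, 0.0597 and 0.0538 in calves and 6.26, 8 and 8.24 in bulls (2.96 ± 0.16, adjusted p = 3.27e-05). ADAM20 (chr10:82176146-82178847) had an FPKM of 0.481, 0.582 and 0.673 in calves and 3.36, 4.06 and 4.59 in bulls (1.66 ± 0.16, adjusted p = 0.000271). Groups did not overlap for any of the 3, where 46.1% of all genes tested had bulls above calves without overlap. ADAM20 and ADAM21 are close relatives that lie 20064 bases apart, and how reads shared between such copies were assigned is not given in the sources used here. With quantile normalization ADAM20 was at 0.85 and no longer called.

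ADAM32, ADAM2, ADAM3A and ADAM18 lie in a row on chromosome 27, next to the widely expressed ADAM9. The gap from ADAM9 to ADAM32 was 3701 bases, that from ADAM2 to ADAM3A 14408 bases and that from ADAM3A to ADAM18 34333 bases. ADAM9, on the near side of the shortest gap, was not higher in bulls. Its FPKM was 9.03, 9.78 and 9.23 in calves and 4.60, 6.41 and 5.73 in bulls, a log2 fold change of -0.66 ± 0.17 (adjusted p = 0.0190) that was under the 2-fold limit. With quantile normalization ADAM9 was at -1.19 and called lower. Beyond ADAM9, PLEKHA2 was lower in bulls by -1.65 on the log2 scale and TM2D2 was not called (-0.11). IDO1, on the far side of ADAM18, was not called either (-0.32), but was called lower with quantile normalization (-1.16).

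Assembled loci without a gene symbol lay on, between and beside the ADAMs, and 3 of them were higher in bulls. XLOC_160245, on the span of ADAM9, and XLOC_157978, between ADAM3A and ADAM18, reached at most 0.380 and 0.301 FPKM and were not tested. XLOC_157962 (chr27:34425860-34573802), between ADAM32 and ADAM2, had an FPKM of 0.158, 0.268 and 0 in calves and 62.4, 73.2 and 48.7 in bulls, a log2 fold change of 5.76 ± 0.21 (adjusted p = 9.48e-06). XLOC_157962 covers the span of the Ensembl gene ENSBTAG00000040445 (chr27:34425976-34551743), which was at 0.169, 0.319 and 0.174 FPKM in bulls. XLOC_160247 covered nearly the same bases as ADAM32 and was at 0.0132 to 0.0331 FPKM in calves and 5.80 to 7.10 FPKM in bulls (2.83 ± 0.14). Reads of overlapping loci may have been split between them, so the levels of XLOC_157962 and XLOC_160247 are uncertain. XLOC_157985, after ADAM18, was at 0 to 0.196 FPKM in calves and 2.45 to 12.8 FPKM in bulls (2.73 ± 0.50, adjusted p = 0.00453). These assembled loci were named after their values were seen.

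**Figure D2:**
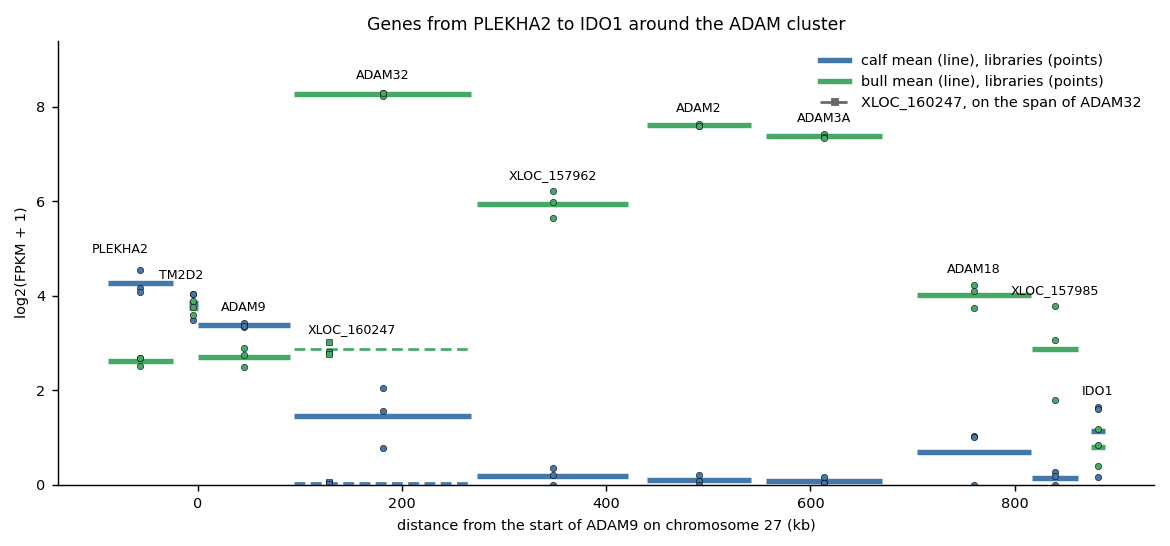
Levels of the genes from PLEKHA2 to IDO1 that reached an FPKM of 1 in some library, as log2(FPKM + 1), against distance from the start of ADAM9 in kilobases. Each line spans a gene at its group mean, points are libraries, and the dashed lines mark XLOC_160247 on the span of ADAM32. From ADAM32 to XLOC_157985 the bull lines lie above the calf lines, whereas for ADAM9 and PLEKHA2 they lie below.

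The broadly expressed ADAMs that carry a metalloprotease site, listed with ADAM28 and ADAMDEC1, differed less. Of the 8 tested, ADAM8 was higher in bulls, ADAM12 and ADAM33 were lower, and 5 were not called, with and without calf 3. Over all genes 35.7% were higher and 9.61% lower, or 37.9% and 13.6% without calf 3. The median log2 fold change of the 8 was -0.74. With quantile normalization 1 was higher and 5 lower, against 21.1% and 25.1% of all genes. Summed over the 10 genes listed, the level was 71.5, 57.5 and 66 FPKM in calves and 37.0, 43.4 and 41.3 FPKM in bulls.

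ADAM10, the main shedding enzyme of Notch receptors and of amyloid precursor protein, had an FPKM of 22.7, 20.9 and 25.1 in calves and 9.65, 12.9 and 11.2 in bulls. Every bull lay below every calf. The log2 fold change of -0.97 ± 0.17 (adjusted p = 0.00340) fell just short of the 2-fold limit. Leaving out calf 2 gave -1.03 and leaving out bull 2 gave -1.07, both called lower. Quantile normalization gave -1.61, also called lower. The Ensembl transcript ADAM10-201 alone was at 22.7, 20.9 and 25 FPKM in calves and 9.29, 11.8 and 9.77 FPKM in bulls and was called lower (-1.08 ± 0.17, adjusted p = 0.00235). ADAM17, which releases tumour necrosis factor and ligands of the epidermal growth factor receptor, had an FPKM of 10.2, 10.2 and 8.77 in calves and 9.53, 9.50 and 8.63 in bulls. Its groups overlapped, and its log2 fold change was -0.07 ± 0.15 (adjusted p = 0.728). All 6 libraries, calf 3 included, lay between 8.63 and 10.2 FPKM for ADAM17.

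ADAM8, a protease best known from leukocytes, had an FPKM of 1.21, 1.96 and 1.04 in calves and 7.71, 7.79 and 8.43 in bulls (log2 fold change 1.92 ± 0.20, adjusted p = 0.000431). Among 5 macrophage markers, AIF1 and MRC1 were higher in bulls and CSF1R was lower. The list summed to 57.2, 40.0 and 56.5 FPKM in calves and 150, 142 and 210 FPKM in bulls. Of these bull sums, 113, 94.2 and 167 FPKM came from AIF1 alone. CD163, not called, was at 14.4, 12.8 and 2.98 FPKM in calves and 5.82, 10.1 and 7.20 FPKM in bulls. CD68, not tested, lay between 0.692 and 1.07 FPKM in calves and between 0.478 and 0.571 FPKM in bulls. None of the 5 was at 0 in any library, and their part in the ADAM8 difference was not tested. Both Ensembl transcripts of ADAM8 were called higher. ADAM8-201 lay between 0.827 and 1.06 FPKM in calves and between 5.41 and 6.17 FPKM in bulls. The other transcript lay between 0 and 0.905 FPKM in calves and between 1.75 and 2.38 FPKM in bulls, and it was not called without calf 3.

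ADAM12, which is linked to mesenchymal cells and cuts binding proteins of insulin-like growth factors, had an FPKM of 17.9, 7.07 and 2.60 in calves and 1.08, 1.48 and 1.79 in bulls. The groups did not overlap, but the calves differed several-fold among themselves. Its log2 fold change was -1.75 ± 0.59 (adjusted p = 0.0465), and -2.34 ± 0.37 without calf 3 (adjusted p = 0.00143). The call was lost when calf 1, calf 2, bull 1, bull 2 or bull 3 was left out, with an adjusted p between 0.064 and 0.139 and a log2 fold change between -1.85 and -1.15. ADAM33, known as an asthma susceptibility gene of mesenchymal cells, had an FPKM of 3.78, 2.48 and 1.80 in calves and 0.559, 0.759 and 0.591 in bulls (-1.14 ± 0.22, adjusted p = 0.00558). Without calf 1 the value was -0.94 and no longer called. ADAM33 was below 1 FPKM in every bull and passed the filter through the calves alone, so its direction was largely set by the filter. Most of the ADAM33 value belonged to an assembled entry, TCONS_00068352, at 1.33 to 2.59 FPKM in calves and 0.416 to 0.473 FPKM in bulls.

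ADAM15 and ADAM19 were not called. ADAM15, a membrane protease with an integrin-binding motif, had an FPKM of 3.57, 3.27 and 16.1 in calves and 2.48, 2.97 and 3.38 in bulls, so that calf 3 alone stood high (log2 fold change -0.82 ± 0.56, adjusted p = 0.257, or -0.17 ± 0.16 without calf 3). ADAM19, which takes part in heart development and sheds neuregulins, had an FPKM of 2.34, 1.40 and 1.3 in calves and 1.22, 1.34 and 1.54 in bulls (-0.16 ± 0.19, adjusted p = 0.488). Apart from calf 1 the ADAM19 libraries lay between 1.22 and 1.54 FPKM. ADAM19 was called lower with quantile normalization (-1.11).

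ADAM11, ADAM22 and ADAM23 have no working protease site and serve mainly as neuronal receptors of the secreted LGI proteins at synapses. ADAM22 had an FPKM of 0.506, 0.787 and 20.7 in calves and 0.936, 0.988 and 0.945 in bulls, and it did not pass the filter. ADAM23 had an FPKM of 1.38, 2.13 and 31.6 in calves and 0.292, 0.338 and 0.244 in bulls. With calf 3 its log2 fold change was -2.27 ± 0.99 and not called (adjusted p = 0.0983), and without calf 3 it was -1.08 ± 0.16 and called lower (adjusted p = 0.00101). ADAM23 was below 1 FPKM in every bull and passed the filter through the calves alone, so its direction was largely set by the filter. Calf 3 was needed for it to pass, and the fit without calf 3 kept the genes that passed with all 6 libraries. For ADAM22 and ADAM23 calf 3 was the highest library, and 5 neuron markers summed to 607 FPKM there, against 4.47 to 15.1 FPKM in the others. That these markers account for the ADAM levels of calf 3 was not tested.

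ADAM11 followed another pattern. Its FPKM was 2.60, 15.6 and 6.02 in calves and 15.3, 15.0 and 15.2 in bulls, so that calf 2 lay above all bulls and calf 1 and calf 3 lay below. The log2 fold change was 1.11 ± 0.54 and not called (adjusted p = 0.128), and it was 1.69 and called higher when calf 2 was left out (adjusted p = 0.0104). The 3 bulls lay between 15.0 and 15.3 FPKM. ADAM7, a protein of the epididymis that is transferred to sperm, reached at most 0.347 FPKM in any library and was listed at 0 in calf 3, bull 1 and bull 3.

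The LGI genes, which encode the ligands of these receptors, were all highest in calf 3, at 25 FPKM for LGI1, 25 for LGI2, 39.7 for LGI3 and 10.6 for LGI4. Among the other libraries LGI1 was at 0.0663 and 0.188 FPKM in calves 1 and 2 and at 3.07, 3.42 and 3.54 FPKM in bulls. LGI1 was not called with all libraries (log2 fold change 0.44 ± 1.25, adjusted p = 0.786) and was called higher without calf 3 (1.95). LGI2 and LGI3 did not pass the filter, and LGI4 was not called.

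Of 4 tested ADAMTS proteases that cut aggrecan, versican and other proteoglycans, ADAMTS1 was lower in bulls and none was higher. Over all genes 9.61% were lower and 35.7% higher. ADAMTS1 (chr1:9583345-9592271), which the luteinizing hormone surge induces in ovarian follicles, had an FPKM of 8.38, 7.41 and 1.80 in calves and 0.937, 1.03 and 1.21 in bulls. Its groups did not overlap, and its log2 fold change was -1.56 ± 0.48 (adjusted p = 0.0339), or -2.11 ± 0.15 without calf 3 (adjusted p = 4.6e-05). Leaving out calf 1, calf 2, bull 1, bull 2 or bull 3 ended the call, with an adjusted p between 0.0892 and 0.104 and a log2 fold change between -1.61 and -1.24. The 7 Sertoli cell markers summed to 1790, 1470 and 444 FPKM in calves and 186, 201 and 221 FPKM in bulls. In calf 3, 429 of the 444 FPKM came from CLDN11, a gene that oligodendrocytes also express. CLDN11 was lower in calves 1 and 2 (0.940 and 18.2 FPKM) than in bulls (62.8 to 84.0 FPKM), and INHA and AMH made up most of the sums of these calves. None of the 7 markers was called with all libraries, which include calf 3, where INHA and AMH were at 0.766 and 0.340 FPKM. In bulls INHA lay between 82.1 and 113 FPKM and AMH between 4.52 and 5.19 FPKM. Calls of the 7 markers without calf 3 are not given here, and their part in the ADAMTS1 difference was not tested.

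ADAMTS4 and ADAMTS5 are the main aggrecan-cutting enzymes of cartilage. ADAMTS4 had an FPKM of 1.14, 0.829 and 17 in calves and 0.0806, 0.110 and 0.0448 in bulls, and it did not pass the filter. ADAMTS5, which lies 92020 bases from ADAMTS1, had an FPKM of 1.45, 1.18 and 0.299 in calves and 0.483, 0.236 and 8.84 in bulls. Bull 3 alone was high, and the gene was not called (log2 fold change 0.46 ± 0.82, adjusted p = 0.662). Without bull 3 its log2 fold change was -0.50.

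ADAMTS9, a versican-cutting enzyme that also clears matrix in developing tissues, had an FPKM of 10.2, 10.8 and 2.70 in calves and 6.04, 6.41 and 8.96 in bulls (log2 fold change 0.03 ± 0.49, adjusted p = 0.964). Calf 1 and calf 2 lay above all bulls and calf 3 below them, and without calf 3 the value was -0.51 ± 0.18, under the 2-fold limit (adjusted p = 0.0406). ADAMTS20, a relative of ADAMTS9 that is mutated in mice with a belted coat, had an FPKM of 0.922, 1.29 and 2.70 in calves and 0.854, 1.07 and 1.56 in bulls (-0.24 ± 0.28, adjusted p = 0.489). ADAMTS20 was called lower with quantile normalization (-1.12). ADAMTS8 and ADAMTS15 stayed below 1 FPKM in all libraries.

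The procollagen N-proteinases remove the amino-terminal propeptide of fibrillar collagens. ADAMTS2 had an FPKM of 2.70, 1.24 and 1.07 in calves and 1.43, 1.95 and 2.08 in bulls, with overlapping groups (log2 fold change 0.12 ± 0.26, adjusted p = 0.713). ADAMTS3, which also activates the lymphatic growth factor VEGFC, had an FPKM of 2.78, 1.64 and 3.07 in calves and 0.654, 0.773 and 0.759 in bulls. All bulls lay below all calves, and the log2 fold change of -0.99 ± 0.20 (adjusted p = 0.00627) was just under the 2-fold limit. Leaving out calf 2, bull 2 or bull 3 put ADAMTS3 at -1.18, -1.01 and -1, each called lower. Quantile normalization put it at -1.68, also called lower. ADAMTS3 was below 1 FPKM in every bull and passed the filter through the calves alone, so its direction was largely set by the filter. ADAMTS14 stayed below 1 FPKM.

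Of the 7 other ADAMTS genes tested, 3 were higher in bulls, ADAMTS6, ADAMTS16 and ADAMTS18, against 35.7% of all genes. ADAMTS6, a relative of ADAMTS10 that acts on fibrillin microfibrils, had an FPKM of 1.92, 2.10 and 1.25 in calves and 8.23, 8.73 and 7.17 in bulls (log2 fold change 1.72 ± 0.20, adjusted p = 0.000629). ADAMTS16, whose loss in rats leads to undescended testes and infertility, had an FPKM of 1.11, 0.897 and 0.150 in calves and 5.08, 5.58 and 5.44 in bulls (1.93 ± 0.26, adjusted p = 0.00121). ADAMTS18, the nearest relative of ADAMTS16, had an FPKM of 0.793, 0.762 and 0.286 in calves and 4.11, 7.04 and 4.86 in bulls (1.96 ± 0.24, adjusted p = 0.000843). All 3 were called with and without calf 3 and with quantile normalization, and in each the lowest bull lay above the highest calf. Bulls lay above calves without overlap in 46.1% of all genes tested. ADAMTS18 was below 1 FPKM in every calf and passed the filter through the bulls alone, so its direction was largely set by the filter.

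ADAMTS7 and ADAMTS10 were not called with all libraries and were called lower in bulls when calf 3 was left out. ADAMTS7, which cuts cartilage oligomeric matrix protein (COMP), had an FPKM of 21.3, 25 and 0.262 in calves and 2.74, 4.5 and 3.09 in bulls. With calf 3 its log2 fold change was -1.04 ± 1.18 (adjusted p = 0.486), and without calf 3 it was -2.46 ± 0.20 (adjusted p = 9.07e-05). ADAMTS10, which binds fibrillin microfibrils, had an FPKM of 4.19, 3.90 and 2.50 in calves and 1.15, 1.58 and 1.74 in bulls. Its log2 fold change was -0.85 ± 0.22 (adjusted p = 0.0169) with calf 3 and -1.03 ± 0.16 (adjusted p = 0.00151) without it, and with quantile normalization of all libraries it was -1.72 and called lower. Every bull lay below every calf for ADAMTS10.

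ADAMTS12, ADAMTS17 and ADAMTS19 gave no call. ADAMTS12, like ADAMTS7 a protease of COMP, had an FPKM of 6.10, 3.34 and 0.274 in calves and 7.03, 7.12 and 9.01 in bulls (log2 fold change 1.35 ± 0.63, adjusted p = 0.116). Without calf 1 it was called higher, at 1.88 (adjusted p = 0.0400). ADAMTS17, a fibrillin-associated protease, had an FPKM of 6.79, 3.04 and 2.28 in calves and 3.68, 4.45 and 2.18 in bulls (-0.12 ± 0.39, adjusted p = 0.817). ADAMTS19 had an FPKM of 1.68, 1.87 and 0.568 in calves and 0.755, 0.939 and 0.953 in bulls and did not pass the filter. ADAMTS13, the protease of von Willebrand factor, stayed below 1 FPKM.

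The gene value of a member was the sum of its transcript entries, and these were not all protein-coding transcripts of the gene. The 44 genes had 170 entries, of which 90 were Ensembl transcripts, 36 were other assembled entries, 39 were entries with the gene's name followed by AS and a number, and 5 were entries named OT. AS is the usual mark of an antisense transcript and OT that of an overlapping transcript, but the tables give no strand. Entries named AS belonged to 14 members and were above 0 in some calf for 9 of them and in some bull for all 14. They made up over 20% of the summed bull level in 8 of 34 tested members (23.5%), against 745 of 14957 tested Ensembl genes (4.98%). The 8 were ADAMTS5, ADAMTS6, ADAMTS9, ADAMTS12, ADAMTS16, ADAMTS17, ADAMTS18 and ADAMTSL4, all secreted proteins of the ADAMTS branch.

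In ADAMTS12 the AS entries held 88.1% of the bull level and none of the calf level. They summed to 0 FPKM in each calf and to 6.52, 5.53 and 8.33 FPKM in bulls, whereas the Ensembl transcript ADAMTS12-201 was at 3.19, 2.45 and 0.244 FPKM in calves and 0.379, 0.868 and 0.357 FPKM in bulls. Leaving out the AS entries turned the log2 fold change of ADAMTS12 from 1.35 to -0.86 (adjusted p = 0.296), and leaving out calf 3 as well gave -1.57 ± 0.31, called lower (adjusted p = 0.00416). Different AS entries carried the value in different bulls, with ADAMTS12-AS3 at 3.99, 5.53 and 0 FPKM and ADAMTS12-AS1 at 1.05, 0 and 8.33 FPKM in bulls 1 to 3.

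In ADAMTS5 the high value of bull 3 belonged to the entry ADAMTS5-AS1, at 8.69 FPKM in bull 3 and at 0.384 and 0.0654 FPKM in bulls 1 and 2. The Ensembl transcript ADAMTS5-201 was at 1.45, 1.18 and 0.299 FPKM in calves and 0.0983, 0.170 and 0.154 FPKM in bulls, so that every bull lay below every calf. Without the AS entries ADAMTS5 and ADAMTSL4 no longer passed the filter. ADAMTS17 was not called without its AS entries (-0.73, adjusted p = 0.115) and was called lower from Ensembl transcripts alone (-1.16, adjusted p = 0.0442).

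The higher levels of ADAMTS6, ADAMTS16 and ADAMTS18 in bulls were smaller but still called without AS entries, at log2 fold changes of 1.21, 1.40 and 1.68. AS entries held 33.4% of the bull level of ADAMTS6, 36.8% of ADAMTS16 and 25.4% of ADAMTS18. From Ensembl transcripts alone, ADAMTS16 was at 1.54 and called, ADAMTS6 was at 1.02 and called with calf 3 but at 0.89 and not called without it, and ADAMTS18 did not pass the filter. ADAMTS18 had 17.4% of its bull level in Ensembl transcripts and the rest in assembled entries. Over all members, 13 were higher and 4 lower without AS entries, against 35.3% and 10.1% of all genes, and the added gene was ADAM10. Ensembl transcripts alone gave 11 higher and 4 lower, against 35.1% and 10.4% of all genes. With calf 3 left out as well, 13 were higher and 8 lower without AS entries, against 37.2% and 14.2%, and 10 higher and 7 lower from Ensembl transcripts, against 36.9% and 14.7%.

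**Figure D3:**
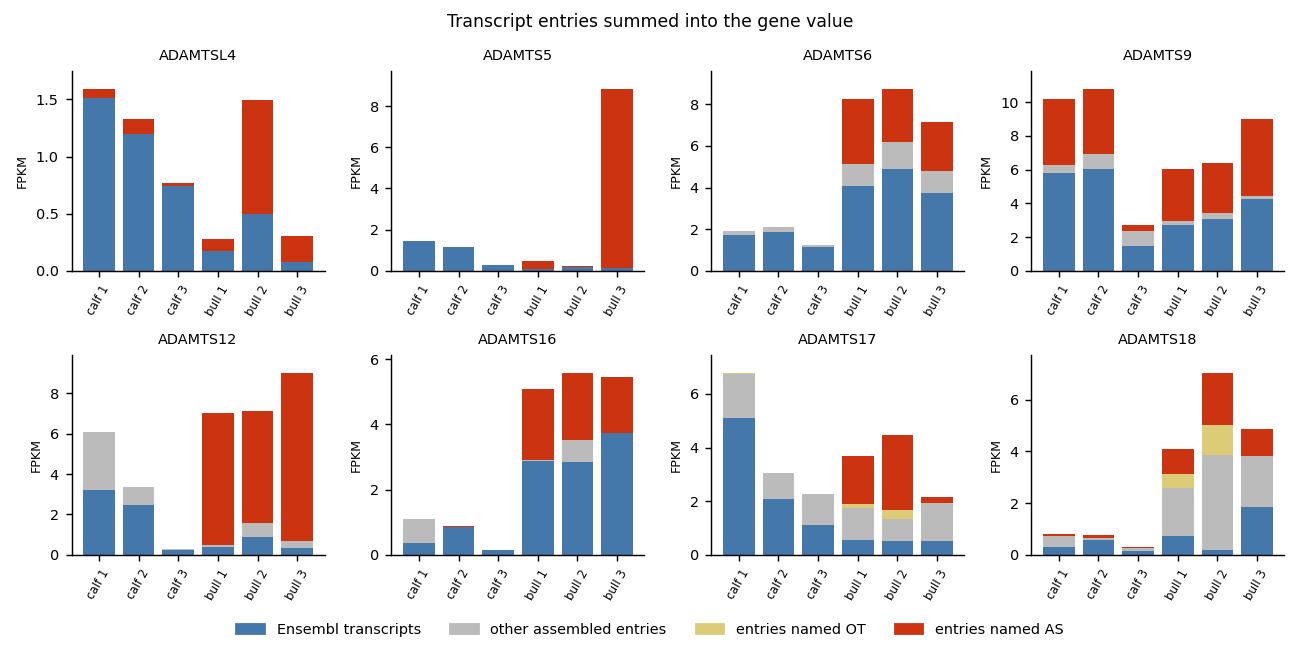
FPKM of the transcript entries that sum to the gene value, by library, for the 8 tested genes with over 20% of their bull level in entries named AS. Each panel has its own vertical axis from 0. Entries named AS make up most of each ADAMTS12 bar of the bulls and of the ADAMTS5 bar of bull 3.

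The ADAMTS-like proteins bind the matrix, among other partners fibrillin, without cutting it. Of 5 tested, ADAMTSL3, ADAMTSL5 and ADAMTSL1 were higher in bulls with and without calf 3, against 35.7% and 37.9% of all genes. ADAMTSL5 was below 1 FPKM in every calf and passed the filter through the bulls alone, so its direction was largely set by the filter. The median log2 fold change of the 5 was 1.43. ADAMTSL3 (chr21:24144715-24509041) had an FPKM of 1.56, 2.34 and 5.88 in calves and 18.4, 23.2 and 24.2 in bulls (log2 fold change 2.55 ± 0.39, adjusted p = 0.00204). Calf 3 lay above the other calves and below all bulls for this gene. ADAMTSL5 had an FPKM of 0.172, 0.149 and 0.794 in calves and 3.53, 2.47 and 2.71 in bulls (1.53 ± 0.22, adjusted p = 0.00172). ADAMTSL1 had an FPKM of 1.44, 0.999 and 0.914 in calves and 4.23, 5.71 and 4.26 in bulls (1.43 ± 0.19, adjusted p = 0.00115). With quantile normalization ADAMTSL5 was at 0.57 and ADAMTSL1 at 0.74, and neither was called.

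ADAMTSL2 and ADAMTSL4 were not called. ADAMTSL2, whose variants cause geleophysic dysplasia, had an FPKM of 1.5, 1.35 and 1.73 in calves and 0.434, 0.409 and 0.617 in bulls. Every bull lay below every calf, and the log2 fold change was -0.76 ± 0.12 (adjusted p = 0.00223), under the 2-fold limit. Quantile normalization put ADAMTSL2 at -1.41, called lower. ADAMTSL2 was below 1 FPKM in every bull and passed the filter through the calves alone, so its direction was largely set by the filter. ADAMTSL4, which acts on the fibres that hold the eye lens, had an FPKM of 1.60, 1.32 and 0.766 in calves and 0.278, 1.5 and 0.305 in bulls (-0.45 ± 0.31, adjusted p = 0.258). Bull 2 alone reached the calf range, and 1 of its 1.5 FPKM belonged to entries named AS. ADAMTSL4 was called lower with quantile normalization (-1.19).

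**Figure D4:**
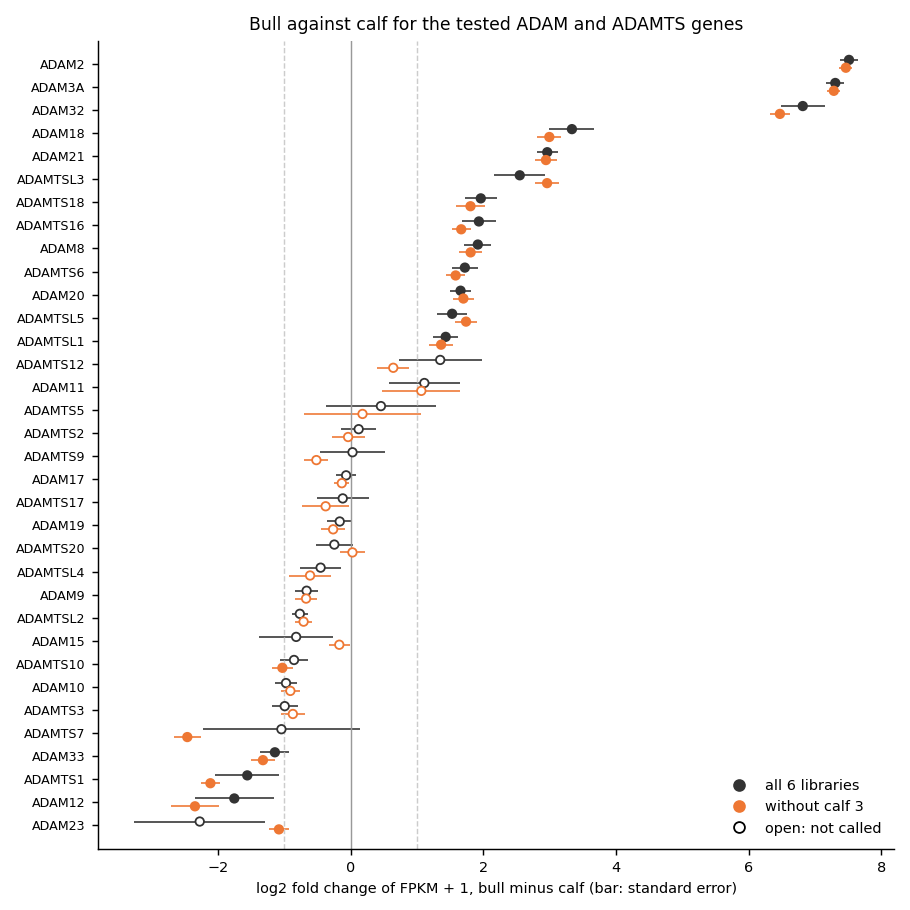
Log2 fold change of FPKM + 1, bull minus calf, for the 34 tested genes, with all 6 libraries (dark) and without calf 3 (orange). Bars are standard errors, dashed lines mark the 2-fold limit and open points were not called. ADAMTS7, ADAMTS10 and ADAM23 are filled only without calf 3.

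The 7 genes below an FPKM of 1 in every library were ADAM7, ADAM28, ADAMDEC1, ADAMTS8, ADAMTS13, ADAMTS14 and ADAMTS15, with a highest level of 0.870 FPKM, that of ADAMTS13 in calf 2. ADAM28, ADAMDEC1 and ADAM7 lie next to each other on chromosome 8, 19177 and 31342 bases apart, and the highest level among the 3 was 0.530 FPKM, that of ADAMDEC1 in calf 1. ADAMTS8 and ADAMTS15 are neighbours on chromosome 29, 22507 bases apart. A low FPKM says that little RNA was measured at this depth, not that the gene was silent.

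Of the 170 transcript entries, 36 passed the filter, 16 were higher in bulls and 4 lower, against 34.8% and 9.37% of the 23212 transcripts tested. Without calf 3, 15 were higher and 7 lower, against 36.1% and 13.1%, and with quantile normalization 9 were higher and 8 lower, against 21.6% and 25.3%. The 6 members with more than 1 entry tested were ADAM2, ADAM3A, ADAM8, ADAMTS6, ADAMTS9 and ADAMTS16, and no member had entries called in both directions. ADAM2-201, the Ensembl transcript of ADAM2, was listed at 0 in all calves and was at 149, 150 and 148 FPKM in bulls. An assembled ADAM2 entry, TCONS_00241093, added 40.7, 46.2 and 42.4 FPKM in bulls. For ADAM3A the Ensembl transcript ADAM3A-201 was at 127, 106 and 121 FPKM in bulls and at most 0.00798 FPKM in calves. By contrast, Ensembl transcripts held 3.62% of the ADAM18 level in bulls, and the assembled entry TCONS_00237917 was at 16.9, 6.32 and 9.86 FPKM there.

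Both tested entries of ADAMTS16 were higher in bulls. ADAMTS16-203 was at 0.200, 0.795 and 0.0907 FPKM in calves and 2.48, 2.56 and 3.22 FPKM in bulls (log2 fold change 1.49 ± 0.23, adjusted p = 0.00227). ADAMTS16-AS1 was at 0, 0.0305 and 0 FPKM in calves and 2.16, 2.05 and 1.72 FPKM in bulls (1.56 ± 0.10, adjusted p = 8.44e-05). The 3 tested entries of ADAMTS6 differed by 0.80 to 0.86 on the log2 scale, each below the 2-fold limit, while their gene was called. The 2 tested entries of ADAMTS9 were not called.

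Genes that mature, activate, inhibit or serve as substrates of ADAM and ADAMTS proteins were listed by role, and 68 of 71 symbols had a row, with a second row for NRG1. TIMP1, LY6K and PMIS2 had none under that symbol. Of 58 partner genes tested, 16 were higher and 11 lower in bulls, against 35.7% and 9.61% of all genes. Without calf 3, 19 were higher and 22 lower, against 37.9% and 13.6% of all genes, and with quantile normalization 14 were higher and 26 lower, against 21.1% and 25.1%. Their median log2 fold change was -0.63.

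Sperm ADAMs need a set of chaperones and surface proteins to reach the sperm surface in mice. Of 11 tested genes of this list, 8 were higher in bulls, against 35.7% of all genes, and the median log2 fold change was 5.18. CMTM2, PDILT, PRSS37 and PRSS55 were below 1 FPKM in every calf and passed the filter through the bulls alone. CMTM2, a membrane protein needed for ADAM3 on sperm, had an FPKM of 0.119, 0.221 and 0 in calves and 473, 447 and 382 in bulls (log2 fold change 8.61 ± 0.16). PRSS37, a protease-like protein needed for ADAM3 processing, had an FPKM of 0.293, 0.401 and 0 in calves and 182, 184 and 193 in bulls (7.26 ± 0.18). CALR3, the germ cell calreticulin, had an FPKM of 0.964, 1.02 and 0.116 in calves and 141, 143 and 143 in bulls (6.45 ± 0.26). Bulls and calves did not overlap for these genes, where 46.1% of all genes tested had bulls above calves without overlap.

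PDILT, a testis protein disulfide isomerase that works with calmegin, had an FPKM of 0.00878, 0.0300 and 0 in calves and 45.1, 80.3 and 64.5 in bulls (5.95 ± 0.24). TEX101, PRSS55, ACE and CLGN, the last encoding calmegin, were higher by 5.24, 5.18, 4.22 and 4.09 on the log2 scale. CLGN already had an FPKM of 57.6 and 83.3 in calves 1 and 2 and rose to 702, 718 and 627 in bulls. The general chaperones CALR and CANX and the sulfotransferase TPST2 were not called, and CANX was lower without calf 3 (-1.16). RNASE10 did not pass the filter.

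Proprotein convertases cut the propeptide from ADAM and ADAMTS precursors. PCSK4, the convertase of germ cells, had an FPKM of 3.23, 3.36 and 1.46 in calves and 78.6, 74.3 and 72.7 in bulls (log2 fold change 4.42 ± 0.26, adjusted p = 4.29e-05). PCSK5 was higher by 1.66 ± 0.26 (adjusted p = 0.00225). The widely expressed convertase FURIN had an FPKM of 15.0, 13.1 and 8 in calves and 8.05, 7.46 and 9.62 in bulls and was not called (-0.44 ± 0.26, adjusted p = 0.196). PCSK7 was not called, and PCSK6, at 39.4 FPKM in calf 3, was not called with all libraries and was called higher without calf 3.

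Of the protease inhibitors, TIMP3 and RECK were lower in bulls and none of 4 was higher, against 9.61% and 35.7% of all genes. TIMP3, the matrix-bound inhibitor of ADAM17 and of several ADAMTS proteases, had an FPKM of 118, 101 and 40.7 in calves and 16.7, 17.6 and 18.7 in bulls (log2 fold change -2.09 ± 0.41, adjusted p = 0.00588). RECK, a membrane-anchored inhibitor, had an FPKM of 12.2, 11.1 and 9.42 in calves and 4.77, 4.94 and 4.47 in bulls (-1.05 ± 0.17, adjusted p = 0.00241). TIMP2 had an FPKM of 2400, 2010 and 135 in calves and 639, 332 and 754 in bulls, was not called with all libraries (-0.68 ± 1.17) and was lower without calf 3 (-2.01). TIMP4 was not called.

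Among the iRhoms and tetraspanins that carry ADAM17 and ADAM10 to the surface, TSPAN33 and TSPAN14, both partners of ADAM10, were lower in bulls, and TSPAN17 was higher. TSPAN33 had an FPKM of 13.0, 14.3 and 25.5 in calves and 4.12, 2.58 and 2.92 in bulls (log2 fold change -2.10 ± 0.30, adjusted p = 0.00164). TSPAN14 had an FPKM of 15.2, 12.6 and 14.1 in calves and 4.33, 5.45 and 4.55 in bulls (-1.38 ± 0.17, adjusted p = 0.000756). TSPAN17 had an FPKM of 11.4, 12.4 and 9.68 in calves and 17.7, 29.8 and 25.5 in bulls (1.04 ± 0.23, adjusted p = 0.00981), and without calf 3 it was at 0.95 and not called. In that fit TSPAN5 was called higher (1.59) and TSPAN15 and RHBDF1 lower (-1.07 and -1.14). Of the 7 tested, 1 was thus higher and 4 lower without calf 3, against 37.9% and 13.6% of all genes. With all libraries 1 was higher and 2 lower, against 35.7% and 9.61%. With quantile normalization 5 were lower, against 25.1% of all genes, and TSPAN17 was not called.

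Among proteins shed by ADAM10 and ADAM17, 2 of 14 tested genes were higher and 4 lower, against 35.7% and 9.61% of all genes. Without calf 3, 2 were higher and 6 lower, against 37.9% and 13.6% of all genes. With quantile normalization 2 were higher and 10 lower, against 21.1% and 25.1%. APP, the amyloid precursor protein, had an FPKM of 158, 201 and 250 in calves and 19.7, 24.2 and 26.1 in bulls (log2 fold change -3.05 ± 0.22, adjusted p = 0.000102). HBEGF and TNFRSF1B were lower by -1.67 and -1.31 on the log2 scale, and NOTCH1 by -1.42, the last not called without calf 3 (-0.90). CDH2, KIT and NOTCH2 were not called with all libraries (-1.11, -0.94 and -1.01) and were called lower without calf 3 (-1.56, -1.17 and -1.66). AREG, the growth factor amphiregulin, had an FPKM of 0.814, 1.33 and 0.0148 in calves and 14.7, 17.5 and 19.1 in bulls (3.47 ± 0.34, adjusted p = 0.000312). NRG1 had a pair of rows, of which the tested row was higher in bulls (1.79 ± 0.22) and the other lay at 0.824 to 2.71 FPKM in calves and 0.144 to 0.344 FPKM in bulls.

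Substrates of ADAMTS proteases in the matrix moved in both directions, with 3 of 15 tested genes higher and 3 lower. Over all genes 35.7% were higher and 9.61% lower. The 3 higher, COMP, ACAN and COL2A1, were below 1 FPKM in every calf and passed the filter through the bulls alone. COMP, the substrate of ADAMTS7 and ADAMTS12, had an FPKM of 0.273, 0.372 and 0.0446 in calves and 34.5, 33.2 and 37.5 in bulls (log2 fold change 4.88 ± 0.18, adjusted p = 9.34e-06). ACAN, the aggrecan gene, and COL2A1, a procollagen gene, were higher by 1.89 and 1.70. VCAN, the versican gene, had an FPKM of 9.78, 7.07 and 39.5 in calves and 0.865, 1.20 and 1.26 in bulls (-2.86 ± 0.61, adjusted p = 0.00850). BGN and FN1 were lower by -1.18 and -1.06, FN1 with calf 3 included and not without it (-0.82). Without calf 3, BCAN was called higher (1.1, against -0.59 and no call with all libraries), which made 4 of the 15 genes higher. In that fit 8 were lower, COL1A1, COL1A2, COL3A1, DCN, FBN1 and NID1 among them. The shares over all genes were then 37.9% higher and 13.6% lower.

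**Figure D5:**
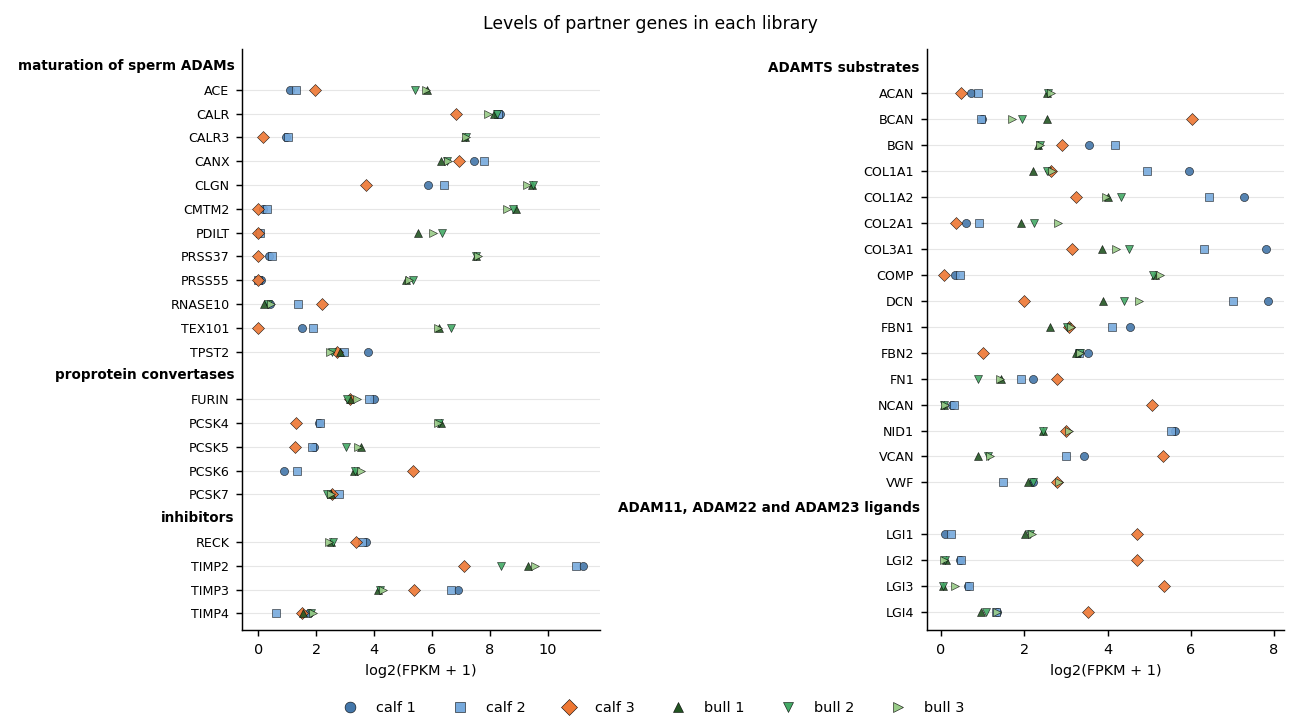
Level of partner genes as log2(FPKM + 1), with 1 point per library, for proteins that mature sperm ADAMs, convertases, inhibitors, ADAMTS substrates and LGI ligands. Bulls lie far right of calves for CMTM2, PRSS37, CALR3 and PCSK4, and calf 3 stands alone on the right for the LGI genes, BCAN and NCAN.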

How the data were processed

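From 3 calf and 3 bull testis libraries, the authors removed ribosomal reads with Bowtie2, mapped the rest with TopHat2, assembled transcripts with StringTie and deposited FPKM values per library for genes and for transcripts, with no counts. The study names Cuffdiff and Ballgown for circular RNA levels. The tool behind the gene and transcript FPKM, and its use of strand, are not given in the sources used here, although the labels describe a strand-specific library. The study's methods name the UMD assembly, whereas the positions in the tables follow an ARS-UCD assembly.

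Values were taken as log2(FPKM + 1), and a feature was kept where 3 or more of the 6 libraries reached an FPKM of 1. Groups were compared with limma 3.58.1 in R 4.3.3 with trended empirical Bayes moderation and Benjamini-Hochberg adjustment across the whole table. Calls required both an adjusted p under 0.05 and a change of 1 or more, either way, in log2 units. The procedure was tested on simulated data whose spread was taken with calf 3 left out, so a library standing apart like calf 3 was not simulated. Every member is named, with its value in each library where it reached an FPKM of 1, and called partner genes are named by size of change, up to 4 per list, with others given as counts or values. The members and gene lists were chosen with earlier results of these data known. Alternatives were the pseudocount, filters, scalings, weights, the replicate block, each library left out and, chosen after seeing the data, the transcript entries summed into a gene. Replicate numbers are shared between groups, and the labels do not say that they pair the animals. Deviations of same-numbered calves and bulls correlated at 0.025 to 0.034, and those of differently numbered ones at -0.049 to 0.022. With 3 libraries per group and calf 3 standing apart, these values cannot exclude a shared batch. Plots were made in matplotlib 3.10.9 under Python 3.11.15.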

Additional observations from a re-analysis of the deposited data

How the results depend on the processing

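The call of 13 members higher in bulls was within 1.5 times of that count in every alternative run except an FPKM of at least 1 in all libraries, which gave 3. The 3 members lower in bulls became 8 with a pseudocount of 0.1, 1 without a filter, 0 with an FPKM of at least 1 in all libraries, 11 with quantile normalization, 6 when scaled to total FPKM, 5 when scaled by the median ratio and 6 with array weights. Quantile normalization without calf 3 gave 13, and leaving out calf 3 together with AS entries gave 8, or 7 with Ensembl transcripts only. Leaving out 1 library gave 0 (calf 1) to 6 (calf 3) members lower, and 1 without bull 1.

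The 16 member transcripts higher became 0 under the filter on all libraries and 9 with quantile normalization, with or without calf 3. The 4 lower became 7 with a pseudocount of 0.1, 2 without a filter, 1 under the filter on all libraries, 8 with quantile normalization and with total scaling, 7 with the median ratio and with array weights, 11 with quantile normalization without calf 3, and 1 (without calf 1) to 7 (without calf 3) with a library left out. The 16 partner genes higher became 6 under the filter on all libraries. The 11 lower became 26 with quantile normalization, 19 with total scaling, 22 with array weights, 32 with quantile normalization without calf 3, 23 without calf 3 and without AS entries or all but Ensembl transcripts, and 8 to 22 with a library left out, 22 being without calf 3.

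With the replicate number as a block, 1 member and 2 member transcripts were lower. ADAM12 (adjusted p = 0.0721) and ADAMTS1 (adjusted p = 0.0511) lost their call under the replicate block. The labels do not pair equal numbers, and the correlations of same-numbered libraries, 0.025 to 0.034, cannot exclude a shared batch.

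The 10 genes with the same direction and call in every alternative that tested them were ADAM2, ADAM3A, ADAM8, ADAM15, ADAM17, ADAM18, ADAM21, ADAM32, ADAMTS18 and ADAMTSL3. The direction turned for 7 genes not called in the main comparison. ADAM19 was at 0.01 without calf 1, in a range from -0.26 over the libraries left out. ADAMTS17 was at 0.25 without calf 1 and 0.11 without bull 3, the lowest with a library left out being -0.38. Its lowest over all alternatives was -1.50, from Ensembl transcripts only and without calf 3, where it was called lower. ADAMTS2 was at -0.82 with quantile normalization, -0.85 with that and without calf 3, -0.04 with total scaling and in each fit without calf 3 on the entries tried, and -0.03 with array weights, the highest with a library left out being 0.38. ADAMTS20 was at 0.01 with array weights and 0.03 without calf 3, also when AS entries were left out, and at -0.44 without calf 1. ADAMTS5 was at -0.25 with quantile normalization, -0.45 with that and without calf 3, and -0.50 without bull 3, the highest being 1 without bull 2. ADAMTS9 was at -0.52 with quantile normalization, -1.06 with that and without calf 3, -0.20 with total scaling, -0.06 with the median ratio, -0.49 with array weights, -0.51 without calf 3, -0.12 without bull 3 (0.32 without calf 2), -0.34 without AS entries, -0.19 with Ensembl transcripts only, and -0.74 and -0.68 in these last with calf 3 also left out. ADAMTS12 was at -0.86 without AS entries and -1.57 without calf 3 as well, since those entries held 88.1% of its bull level. Apart from ADAMTS12, the cause was not tested. With no counts, the depth behind low values, such as the calf values of ADAM2 and ADAM3A, sets no interval on them.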
